A study of Mus musculus with 22 samples.

Results

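miR-10a, miR-10b, miR-196a and miR-196b are the microRNAs (miRNAs) of 2 families whose genes lie inside the Hox clusters, the 4 genomic blocks of homeobox transcription factor genes that pattern the body axis. They were taken by name from the mouse miRNA panel, without their star strands, and make up 4 of its 626 probes, 60 of which are no mouse miRNAs. Counts came from 15 tissue and 7 plasma samples of a mouse model in which doxycycline switches on Cre recombinase in Pax8-expressing cells, the secretory epithelium of the fallopian tube among them. CT were fallopian tubes of uninduced mice (n = 5), FT were fallopian tubes after induction (n = 5) and M were metastatic tumors (n = 5), of which M6 was an ovarian tumor. CS was plasma of control mice (n = 3) and TS plasma of tumor-bearing mice (n = 4).

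By the study's sample list, all mice carried conditional alleles of Brca1 or Brca2 among others. FT1, FT3 and FT5 were Brca2 -/+, FT2 was Brca1 -/- and FT4 was Brca2 -/-. M1 and M3 were Brca2 -/-, M4 was Brca2 -/+, and M2 and M6 were Brca1 -/+. The uninduced CT mice held the same kinds of alleles before recombination, with Brca1 fl/fl in CT1 and CT3, Brca1 fl/+ in CT2, Brca2 fl/fl in CT4 and Brca2 fl/+ in CT5. The plasma of TS1, TS2, TS3 and TS4 was drawn from the FT2, FT3, FT4 and FT5 mice in that order, and each CS sample from the CT mouse of the same number. Induction reaches Pax8-expressing cells alone, so each FT sample is bulk tissue with recombined and unrecombined cells, and the groups are mixed in Brca genotype.

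Hox cluster miRNAs are transcribed from the same chromatin as their neighbouring Hox genes and follow the position of a tissue along the body axis. The miR-196 family is known for binding the messenger RNA of Hoxb8, and miR-10 family members have been described as repressing Hox genes of the D cluster. In the Müllerian duct, which gives rise to the fallopian tube and uterus, Hoxa9 is known as a gene of the tube and Hoxa10 as one of the uterus. miR-10b is widely known from work on metastasis in other tumors.

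The sequences are shown because each family shares 1 seed (bases 2 to 8, in capitals), the stretch that pairs with a target, and its members differ at 1 base. They are mature miRNAs from RefSeq, build GRCm38.p6, written 5′ to 3′, and all 4 members had an entry.
miR-10a: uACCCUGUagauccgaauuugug
miR-10b: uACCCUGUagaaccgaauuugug
miR-196a: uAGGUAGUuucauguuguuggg
miR-196b: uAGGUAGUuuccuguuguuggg
Counted from 1 at the 5′ end, the substitution from miR-10a to miR-10b was U12A, with 22 of 23 bases the same, and that from miR-196a to miR-196b was A12C, with 21 of 22 bases the same. In the RefSeq table each of the 2 seeds was shared by the 2 members of the family and by no other mature mouse miRNA. How far a probe for one member also captures the other was not tested.

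Mature miR-10a lies at chr11:96317186-96317208 (+ strand), inside the span of Hoxb3 and between Hoxb5 and Hoxb4. Mature miR-10b lies at chr2:74726074-74726096 (+ strand), inside the spans of Hoxd3 and Hoxd4. miR-196a is made from 2 genes, Mir196a-1 at chr11:96265187-96265208 (+ strand) between Hoxb13 and Hoxb9, and Mir196a-2 at chr15:102973365-102973386 (+ strand) between Hoxc10 and Hoxc9. The probe reads the mature miRNA, so the contributions of these 2 genes cannot be told apart. miR-196b lies at chr6:52230129-52230150 (- strand), between Hoxa9 and Hoxa10. The members are thus spread over all 4 Hox clusters, and the B cluster holds miR-10a together with 1 copy of miR-196a.

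Tissue samples held 70164 to 598321 counts summed over all mouse miRNAs, and plasma samples 18350 to 269005. A miRNA was called above detection where its count exceeded the mean plus 2 SD of the 8 negative control probes of its sample, a level of 18.3 to 67.7 counts in tissue and 25.0 to 48.4 in plasma. Some miRNAs listed as markers of cell types also differed between M and CT. Against CT, the fits called 4 of 5 ciliated epithelium miRNAs (such as the miR-34b and miR-449 families), 3 of 5 smooth muscle and stroma miRNAs and 1 of 5 epithelium miRNAs (the miR-200 family) lower in M, and 1 of 5 leukocyte, 1 of 3 erythrocyte and 1 of 2 endothelium miRNAs higher. The endothelium list held the 2 arms of miR-126, which went opposite ways. miR-126-3p was at a log2 fold change of 1.36 and miR-126-5p at -1.08 (edgeR adjusted p = 0.0354 and 0.144). Over all miRNAs 16.8% were called in M against CT. A single call in a list of 5 is near that share, and the lists of 3 and 2 are too short to be set against it. No miRNA of these lists was called in FT against CT, where 0.177% of all were called. The summed normalized count of the ciliated list was 326 to 3997 in CT, 77.3 to 1701 in FT and 26.4 to 74.6 in M, where none of its 5 miRNAs was above detection in any sample. In bulk samples, fewer cells of a type and less RNA per cell cannot be told apart.

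Both miR-10 members were above detection in 15 of 15 tissue samples, miR-196b in 12 and miR-196a in 10. Values below are normalized counts, that is, counts scaled so that the top 100 miRNAs of each tissue sample have the same geometric mean. Probes differ in efficiency, so levels are compared between samples and not between miRNAs. The levels in tissue are drawn sample by sample, with the 2 miR-10 members more tightly grouped in CT than in FT.

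**Figure D1:**
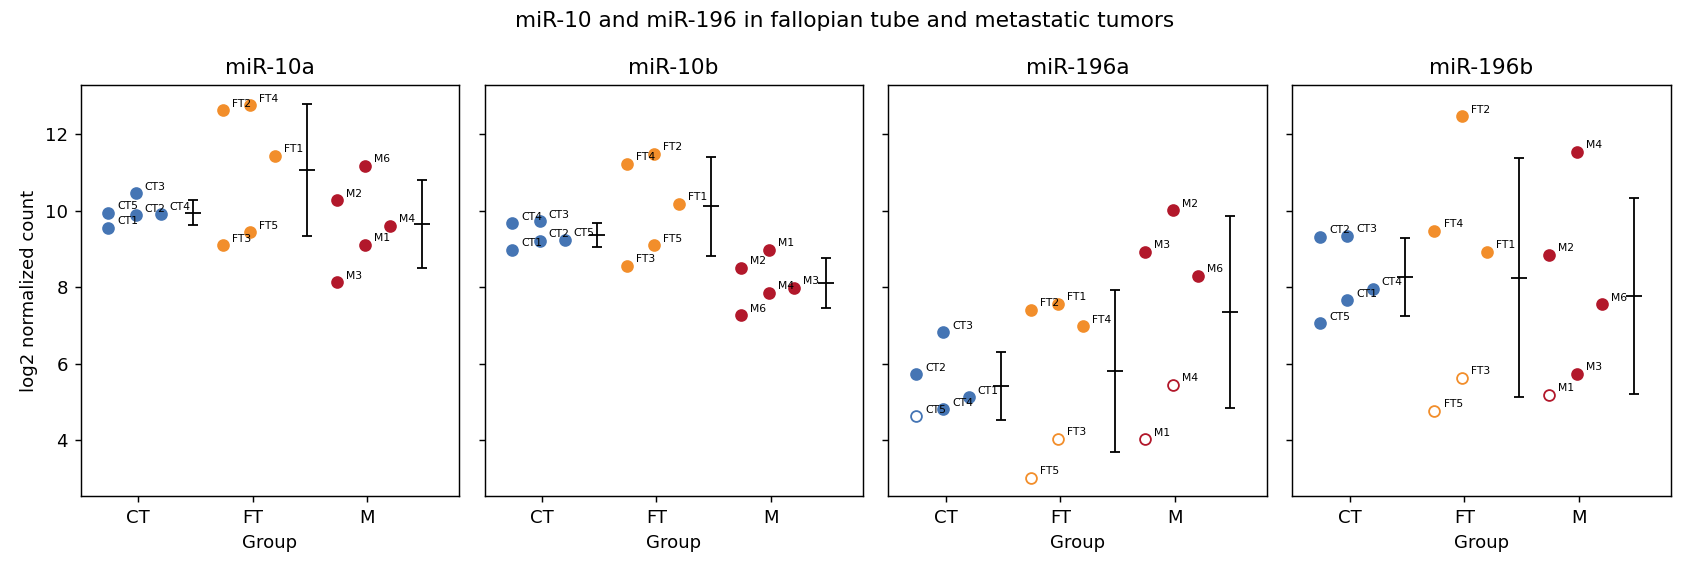
Normalized counts (log2) of the 4 miRNAs in each CT, FT and M sample, with open circles for samples in which the miRNA was not above detection and bars for the mean ± SD of the log2 values (n = 5 per group). FT3 and FT5 are the lowest FT samples for every member, while M samples take a different order for each member.

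miR-10a (mmu-miR-10a on the panel), the member of the B cluster, had normalized counts of 754, 937, 1401, 962 and 979 in CT1 to CT5. In FT1 to FT5 it was at 2769, 6315, 547, 6878 and 691, so that 3 induced tubes were above every control and 2 were below every control. The mean was 1007 ± 238 in CT and 3440 ± 3019 in FT (SD, n = 5 each). edgeR's quasi-likelihood test gave a log2 fold change of 1.77 (SE 0.684), with a Benjamini-Hochberg adjusted p of 0.581 over all mouse miRNAs. In M1, M2, M3, M4 and M6 miR-10a was at 549, 1236, 280, 776 and 2308, with M6 above every control, M1 and M3 below every control, and M2 and M4 among them. The mean in M was 1030 ± 796 (SD, n = 5), and the log2 fold change against CT was 0.03 (SE 0.527, edgeR adjusted p = 0.972). Its sign turned without CT1, M2 or M6, over a range from -0.50 to 0.27 when 1 sample was left out.

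miR-10b (mmu-miR-10b), the member of the D cluster, stood at 501, 590, 846, 813 and 604 in CT1 to CT5. The FT samples were at 1161, 2868, 377, 2393 and 545 in order of number, and the same 3 tubes as for miR-10a were above every control. Mean normalized counts were 671 ± 151 in CT and 1469 ± 1113 in FT (SD, n = 5 each), with a log2 fold change of 1.13 (SE 0.600, edgeR adjusted p = 0.581). M1, M2, M3, M4 and M6 were at 502, 363, 254, 230 and 154, so that 4 of 5 metastatic tumors were below every control and M1 was level with CT1, the lowest of them. The mean in M was 301 ± 135 (SD, n = 5). Against CT the log2 fold change was -1.16 (SE 0.443), and the adjusted p of 0.0828 in edgeR missed the threshold of 0.05. Without M1 the log2 fold change was -1.42 and passed (edgeR adjusted p = 0.0374). DESeq2 on the same scaling gave -1.16 with an adjusted p of 0.0229. In 16 of 20 alternatives it did not pass. It was -0.83 with 1 common set of miRNAs as the scale and -0.50 with miR-425 as the scale (edgeR adjusted p = 0.241 and 0.522).

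miR-196a, whose copies lie in the B and C clusters, was near the background in CT. The normalized counts of mmu-miR-196a were 34.8, 52.8, 113, 28.1 and 24.7 in CT1 to CT5, from raw counts of 30, 77, 103, 36 and 10 against detection levels of 27.8, 67.7, 36.3, 30.8 and 43.5. Thus 4 of 5 controls were above detection, and CT3 was the 1 control well above it. In FT1 to FT5 it was at 189, 170, 16.5, 126 and 8.15 normalized counts, with FT3 and FT5 not above detection. The mean was 50.7 ± 36.5 in CT and 102 ± 85.0 in FT (SD, n = 5 each), and the log2 fold change was 0.999 (SE 0.659, edgeR adjusted p = 0.639).

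The metastatic tumors fell apart into high and undetected samples for miR-196a. M2, M3 and M6 were at 1032, 487 and 314 normalized counts (raw counts of 1173, 209 and 467), all above every control, whereas M1 and M4 were at 16.3 and 43.6 (raw counts of 8 and 21) and not above detection. The mean in M was 379 ± 414 (SD, n = 5). edgeR gave a log2 fold change of 2.89 (SE 0.850) against CT with an adjusted p of 0.0277, the only call among the 4 members in any of the 4 comparisons. The call was lost without CT1, CT2, CT4, CT5 or M2 in turn (log2 fold changes of 2.08 to 2.91, edgeR adjusted p of 0.0642 to 0.0768). limma on log2 normalized counts put the log2 fold change at 1.92 (adjusted p = 0.168), and limma after subtraction of the negative controls put it at 1.56 (adjusted p = 0.550).

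miR-196b (mmu-miR-196b), the member of the A cluster, had normalized counts of 202, 638, 651, 250 and 133 in CT1 to CT5. FT1 to FT5 were at 484, 5658, 49.4, 712 and 27.2, with FT2 and FT4 above every control and FT3 and FT5 below every control and not above detection. Group means were 375 ± 250 in CT and 1386 ± 2406 in FT (SD, n = 5 each), with a log2 fold change of 1.88 (SE 0.956, edgeR adjusted p = 0.581). FT2 alone carried the direction, since the log2 fold change was -0.24 without it. M1, M2, M3, M4 and M6 were at 36.6, 462, 53.6, 2971 and 188. Only M4 was above every control, M1 and M3 were below every control, and M1 was not above detection. The mean in M was 742 ± 1257 (SD, n = 5) and the log2 fold change against CT was 0.98 (SE 0.929, edgeR adjusted p = 0.476). Without M4 it was -1.01.

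Across the 4 members, the FT against CT comparison called 0 of 4, where 0.177% of all mouse miRNAs were called (1 miRNA), and miR-10a alone of the members was under an unadjusted p of 0.05, as were 37 of all miRNAs. DESeq2 called 2 of all miRNAs and limma 0. All 4 log2 fold changes were above 0, with a median of 1.45 beside -0.02 over all miRNAs. The M against CT comparison called 1 of 4 members, where 16.8% of all miRNAs were called (95, of which 49 higher and 46 lower), and the members' median was 0.51 beside 0.02. With 1 common set of miRNAs as the scale the split was 58 higher and 24 lower, and with miR-425 as the scale it was 70 and 10, which moved the median of all miRNAs to 0.29 and 0.66. miR-196a remained a call under both. Both comparisons use the same 5 CT samples, so they are not independent of each other. The fitted changes are drawn with their SE by comparison.

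**Figure D2:**
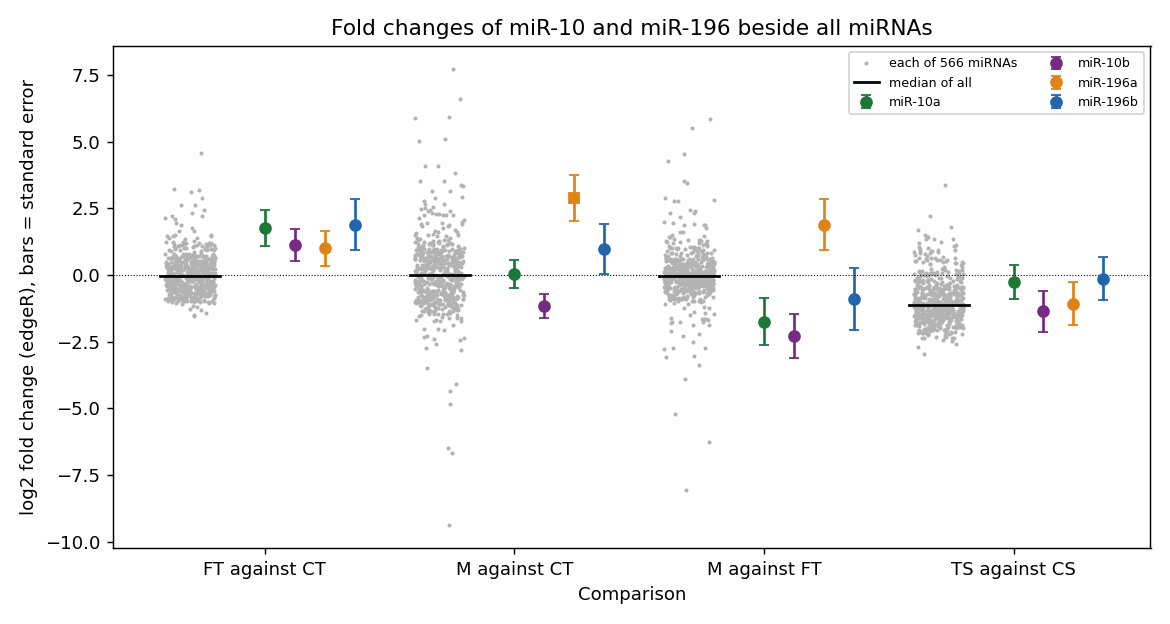
Fitted log2 fold change ± SE of the 4 miRNAs in the 4 comparisons, with squares where the edgeR adjusted p was under 0.05 and circles where it was not. The only square is miR-196a in M against CT, at 2.89.

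Set directly against FT, M had a log2 fold change of -1.74 (SE 0.886, edgeR adjusted p = 0.617) for miR-10a and -2.29 (SE 0.819, adjusted p = 0.205) for miR-10b. Neither passed. The value for miR-10b passed when CT, FT and M were fitted together (adjusted p = 0.0365) and in DESeq2 (adjusted p = 0.00853). For miR-196a the log2 fold change was 1.89 (SE 0.955, edgeR adjusted p = 0.615) and for miR-196b it was -0.90 (SE 1.16, adjusted p = 0.997), the latter turning to 1.22 without FT2. In this comparison 0 of 4 members were called, with 1.94% of all miRNAs called (11), and the members' median was -1.32 beside -0.03 over all.

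The order of the group means was FT, M, CT for miR-10a and miR-196b, FT, CT, M for miR-10b, and M, FT, CT for miR-196a. Of the 12 steps between groups that these fits tested, only that from CT to M for miR-196a passed. On the log2 scale the order of CT and M was the other way for miR-10a, with means of 9.95 in CT, 11.07 in FT and 9.65 in M. For miR-196b it was CT, FT, M, at 8.27, 8.25 and 7.78.

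The spread among samples of 1 group was smaller in CT than in FT for every member. The SD of log2 normalized counts in CT, FT and M was 0.322, 1.73 and 1.15 for miR-10a and 0.324, 1.28 and 0.650 for miR-10b. It was 0.886, 2.11 and 2.51 for miR-196a and 1.02, 3.11 and 2.56 for miR-196b. The median of the 141 miRNAs whose mean tissue count reached 50 was 0.380, 1.25 and 1.01, so it too was smaller in CT than in FT. miR-10b in FT was near that median, with 67 of the 141 at a higher SD. Both miR-196 members thus varied more than that median in every tissue group. Values not above detection (5 samples for miR-196a and 3 for miR-196b) enter these SDs.

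Within a sample, the ratio of the members of 1 family does not depend on the scaling, and its change between samples shows a change in their balance. The log2 ratio of miR-10a to miR-10b was 0.59, 0.67, 0.73, 0.24 and 0.70 in CT1 to CT5 and 1.25, 1.14, 0.54, 1.52 and 0.34 in FT1 to FT5. FT1, FT2 and FT4 were above every control. In M1, M2, M3, M4 and M6 it was 0.13, 1.77, 0.14, 1.75 and 3.90, so that 3 tumors were above every control and 2 below every control. The mean was 0.59 ± 0.198 in CT, 0.96 ± 0.498 in FT and 1.54 ± 1.55 in M (SD, n = 5 each). A two-sided exact permutation test over the 252 splits of 5 against 5 gave p = 0.151 for FT against CT (difference 0.37), p = 0.183 for M against CT (0.95) and p = 0.476 for M against FT (0.58), each adjusted to 0.457 or 0.544 over 8 ratio comparisons. The smallest p that this design allows is 0.00794.

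The log2 ratio of miR-196a to miR-196b was -2.54, -3.60, -2.53, -3.15 and -2.43 in CT1 to CT5, the closest set of the 3 tissue groups. It was -1.36, -5.06, -1.58, -2.49 and -1.74 in FT1 to FT5, with FT2 below every control, FT1, FT3 and FT5 above every control and FT4 among them. In M1, M2, M3, M4 and M6 it was -1.17, 1.16, 3.18, -6.09 and 0.74, above every control in 4 of 5 tumors and below every control in M4. M3 and M4 stood at the ends, with linear ratios of 9.09 and 0.0147. Group means were -2.85 ± 0.506 in CT, -2.45 ± 1.52 in FT and -0.43 ± 3.52 in M (SD, n = 5 each). The two-sided exact permutation tests gave p = 0.619 for FT against CT (difference 0.40), p = 0.151 for M against CT (2.41) and p = 0.278 for M against FT (2.01), with adjusted values of 0.619, 0.457 and 0.457. In FT3, FT5 and M1 neither member was above detection. Their ratios rest on background counts, and their place above every control says nothing of the members' balance. In CT5 and M4 miR-196a alone was not above detection, so those ratios rest in part on background counts.

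**Figure D3:**
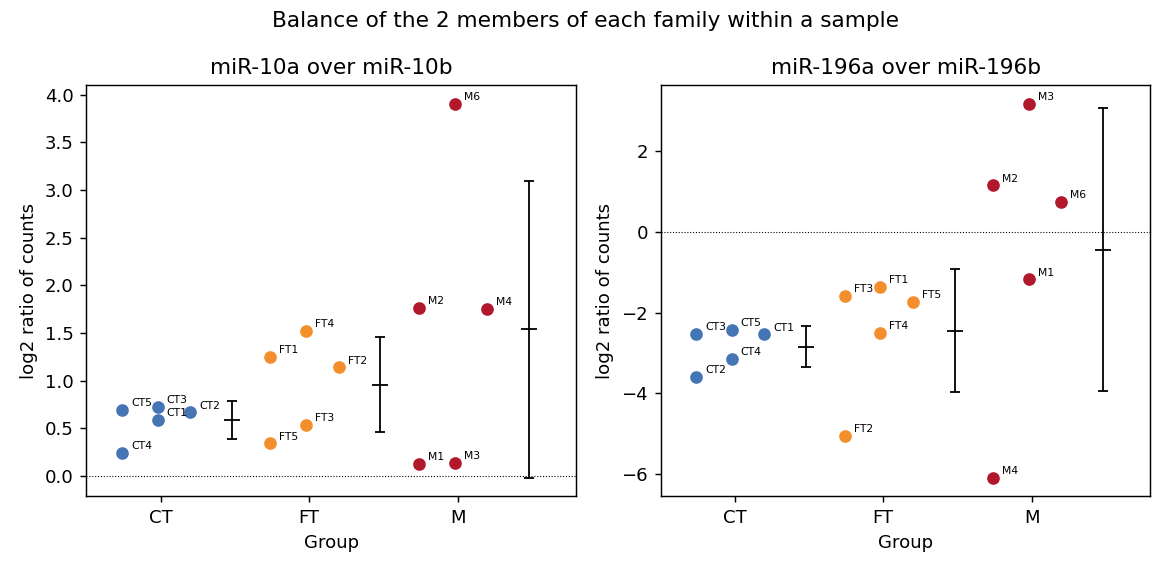
Log2 ratio of counts within each tissue sample, miR-10a over miR-10b and miR-196a over miR-196b, with bars for the mean ± SD (n = 5 per group) and a dotted line at equal counts, which is no equal abundance because probes differ. The CT samples lie close together in both panels, and the M samples reach 3.90 (M6) for miR-10 and run from -6.09 (M4) to 3.18 (M3) for miR-196.

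FT3 and FT5 were the lowest 2 of the 5 FT samples for each of the 4 members. Summed normalized counts of several lists also stood apart in these tubes, in both directions. The miR-200 family list was at 7852 in FT3 and 8713 in FT5 and at 14818 to 44388 in FT1, FT2 and FT4, the let-7 list at 13038 and 38402 against 84791 to 169359, and the endothelium list at 3052 and 4406 against 12878 to 44933. The list of miR-99a, miR-99b and miR-100, relatives of miR-10, was at 4144 and 6964 against 10156 to 24885. The other way, the ciliated epithelium list was at 1689 and 1701 in FT3 and FT5 against 77.3 to 421 in the other 3 tubes, and the smooth muscle and stroma list at 10278 and 16812 against 3043 to 6106. The leukocyte and erythrocyte lists did not separate the tubes in this way. The log2 ratio of housekeeping mRNA to miRNA counts was -1.35 in FT3 and -0.12 in FT5, and 2.58 to 4.33 in the other 3 tubes. The part of tissue makeup and of RNA makeup in the members' levels was not tested.

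Over the 15 tissue samples, the log2 normalized counts of miR-10a and miR-10b had a Pearson r of 0.69, which was 0.81 within CT, 0.99 within FT and -0.44 within M (n = 5 each). Those of miR-196a and miR-196b had an r of 0.40, which was 0.87 within CT, 0.90 within FT and 0.03 within M. In both families the value over the 15 samples thus joined high values in the tubes with values near or below 0 in the tumors. Across families, miR-10a and miR-196b had an r of 0.66 over the 15 samples, with 0.55, 0.92 and 0.39 within CT, FT and M. These are descriptions over samples that share groups and a scaling. miR-196a was above detection in 10 and miR-196b in 12 of the 15 samples, and neither was in FT3, FT5 and M1. The r values of both thus rest in part on background counts.

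Among the other 140 miRNAs that reached this mean count, the profile most like that of miR-10a was that of miR-99a (r = 0.90, n = 15), followed by let-7a (0.75) and let-7f (0.72). For miR-10b these were let-7a (0.83), let-7e (0.76) and miR-100 (0.72). For miR-196a they were miR-21 (0.69), miR-15a (0.65) and miR-126-3p (0.60), and for miR-196b they were miR-200b (0.67), miR-27b (0.66) and miR-10a (0.66). The profiles of both miR-196 members include values not above detection.

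miR-99a and miR-100 are distant relatives of miR-10, and let-7a holds the miR-196 seed. Their RefSeq sequences are shown, with their own seeds in capitals, because miR-99a, the miRNA closest to miR-10a in level, also shares a long run of bases with it. Among these relatives, miR-100 shares a longer run with miR-10a than miR-99a does. It was not among the 3 miRNAs closest to miR-10a in level. For the other members, too, the closest in level was not the relative with the longest shared run.
miR-99a: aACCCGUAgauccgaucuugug
miR-100: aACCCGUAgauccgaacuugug
let-7a: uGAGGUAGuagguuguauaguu
miR-10a shares a run of 10 bases with miR-99a, GUAGAUCCGA, and one of 11 with miR-100, GUAGAUCCGAA, whereas the longest run that miR-10b shares with either is 5 bases. The seed of miR-196, AGGUAGU, lies in let-7a from base 3, outside the register of the let-7 seed. The mature forms lie at chr16:77598940-77598961 (+ strand) for miR-99a, chr9:41531437-41531458 (+ strand) for miR-100 and chr13:48538239-48538260 (- strand) for let-7a from Mirlet7a-1, away from the Hox clusters.

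Of miR-99a, miR-99b and miR-100, 0 of 3 were called in any comparison, a count near the shares of all miRNAs given above. Their median log2 fold change was 0.92 in FT against CT, -0.71 in M against CT and -1.64 in M against FT. miR-100 had 3960 ± 414 normalized counts in CT and 1589 ± 1211 in M (SD, n = 5 each), a log2 fold change of -1.32 (SE 0.539, edgeR adjusted p = 0.100). miR-99a was at 2887 ± 803 in CT, 5475 ± 4102 in FT and 1759 ± 1346 in M.

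The let-7 family (let-7a to let-7i and miR-98), which is known for repressing growth genes such as Lin28 and Ras, had 0 of 9 members called in FT against CT, with a median log2 fold change of 1.46. In M against CT 2 of 9 rose, let-7i by a log2 fold change of 2.32 (SE 0.466, edgeR adjusted p = 0.00309) and miR-98 by 1.71 (SE 0.507, adjusted p = 0.0298), and the family's median was 0.58. The share of 2 of 9 stands beside 16.8% called over all miRNAs. In M against FT 0 of 9 were called. The other Hox cluster miRNA gene on the panel, that of miR-615, lies inside Hoxc5. Its 2 arms, miR-615-3p and miR-615-5p, had at most 14 and 12 counts and were above detection in none of the 22 samples, and 0 of 2 were called in any comparison.

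In plasma 3 of the 4 members were under the detection level throughout, and miR-10a was above it in 3 of 7 samples. miR-10a had raw counts of 13, 7 and 86 in CS2 to CS4 and of 22, 60, 16 and 81 in TS1 to TS4, and it was above detection in CS4, TS2 and TS4 alone. miR-10b reached at most 21 counts, miR-196a at most 12 and miR-196b at most 12, and none of the 3 was above detection in any of the 7 samples. A difference between TS and CS was therefore not detectable at this depth for these 3 miRNAs.

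**Figure D4:**
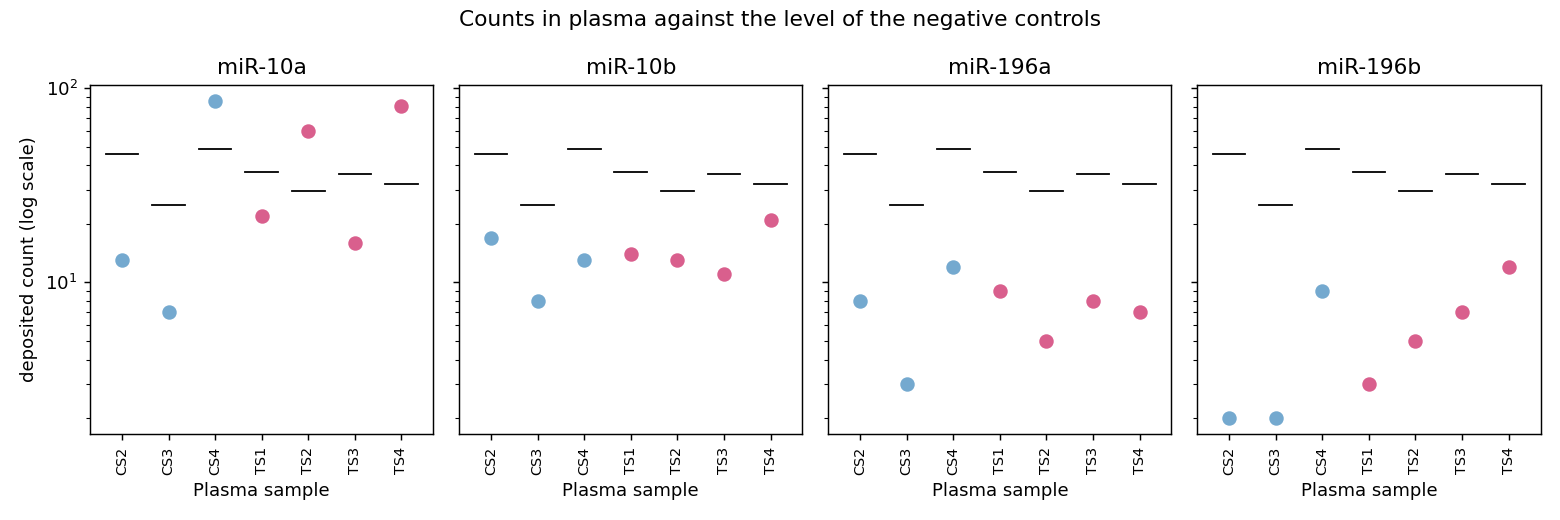
Raw counts of the 4 miRNAs in each plasma sample of CS (n = 3) and TS (n = 4), with black ticks at the detection level of each sample. Only miR-10a in CS4, TS2 and TS4 lies above its tick.

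Scaled to the 30 most abundant miRNAs of each plasma sample, miR-10a was at 43.9 ± 0.568 normalized counts in CS (SD, n = 3) and 36.3 ± 13.4 in TS (SD, n = 4). As miR-10a was above detection in 1 of 3 CS and 2 of 4 TS samples, these means rest in part on background counts. With common set scaling the SD in CS was 8.15. The log2 fold change of TS against CS was -0.26 (SE 0.645, edgeR adjusted p = 0.775), in a comparison whose median over all miRNAs was -1.10. With TMM scaling, which brought that median to -0.05, it was 0.72. In this comparison 0 of 4 members and 0% of all miRNAs were called by edgeR, DESeq2 and limma, with 0 members and 131 of all miRNAs under an unadjusted p of 0.05 in edgeR. The fitted values of the undetected members were -1.36 (SE 0.761) for miR-10b, -1.07 (SE 0.799) for miR-196a and -0.14 (SE 0.807) for miR-196b, with edgeR adjusted p of 0.242, 0.348 and 0.910. The log2 ratio of miR-10a to miR-10b differed by 0.62 and that of miR-196a to miR-196b by -0.75, with p = 0.457 and p = 0.286 in exact permutation tests over 35 splits (adjusted 0.544 and 0.457), a design whose smallest p is 0.0286. As miR-10b and both miR-196 members were above detection in 0 of 7 plasma samples, these ratios rest on background counts and say nothing of the members' balance.

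Plasma and tube of the same mouse can be set side by side. TS1 and TS3 came from the mice of FT2 and FT4, whose tubes had the highest miR-10a, at 6315 and 6878 normalized counts. Their plasma gave 22 and 16 raw counts, both not above detection. TS2 and TS4, from the mice of FT3 and FT5 with 547 and 691 normalized counts in the tube, gave 60 and 81. Summed counts were also lower in TS1 and TS3 (106379 and 94466) than in TS2 and TS4 (171646 and 269005), and scaled to depth the plasma values were closer, at 31.0 and 20.3 against 50.7 and 43.2 normalized counts. The highest miR-196b, at 5658 in FT2, went with 3 raw counts in TS1.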

How the data were processed

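miRNAs were measured from 100 ng of tissue RNA or 10 ng of plasma RNA with the nCounter mouse miRNA panel v1.5 (NanoString), which counts barcodes without amplification. The authors deposited raw counts for 626 probes (566 mouse miRNAs and 60 others). Whether any probe correction preceded deposit is not given in the sources used here. Per the study's methods, tissue was scaled by the geometric mean of its top 100 miRNAs, with no background subtraction. Here each sample's own 100 (tissue) or 30 (plasma) most abundant miRNAs gave the library size, and 1 common set was an alternative.

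edgeR 4.0.16 (R 4.3.3) quasi-likelihood tests were run on all 566 miRNAs within each pair of groups, adjusted by Benjamini-Hochberg, threshold 0.05. SE is the log2 fold change over the square root of F. Ratios within a sample were compared by exact permutation tests (Python 3.11.15, SciPy 1.17.1). Alternatives were TMM, miR-425 and common set scaling, DESeq2 1.42.0, limma 3.58.1, the methods' t-test, a minimum mean count of 50, subtraction of negative controls, a joint fit of the tissue groups, a pseudocount of 10 for ratios, a replicate block and leaving out each sample. For fold changes, subtraction of negative controls was followed by limma and not by edgeR. The scripts were tested on simulated data.

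Groups came from the labels; Brca genotypes and mice came from the study's sample list, and further alleles of these mice are not reported here. The TS labels name the fluid as serum in one field and plasma in others, and plasma is used here. The members and the lists of relatives and cell type markers were chosen with earlier results of these data known. Named miRNAs were the members, their listed relatives, the 2 arms of miR-126 and the 3 miRNAs closest to each member by Pearson r. M5 and CS1 were not analysed here. For 2 mice both FT and M were sampled, but which is not given in the sources used here. p-values weigh group differences against the spread between these samples, and the small number of samples limits precision.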

Additional observations from a re-analysis of the deposited data

Results flagged for a closer look

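The log2 ratio of miR-10a to miR-10b in CT4 was 0.24, against 0.59 to 0.73 in the other 4 controls. The gap to the nearest control was 0.714 of the whole range of the group, just past the 95% critical value of 0.710 for 5 samples. This was 1 of 24 groups of values examined in the same way, and chance flags about 1 in 20.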

How the results depend on the processing

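Each of the 24 results was recomputed under its alternatives, 390 values in all, of which 346 kept direction and side of the threshold, 27 turned in sign, 9 lost a call and 8 gained one. All 9 lost calls were of miR-196a in M against CT, the only call, which held in 11 of 20 alternatives. Its adjusted p in the methods' t-test was 0.351. In FT against CT, miR-196b was at -0.019 in limma and in the methods' t-test and at -0.22 with negative controls subtracted, and leaving out 1 sample gave -0.24 to 2.20. In M against CT, the values in limma and the t-test, with negative controls subtracted and with the replicate block were -0.29, -0.31 and -0.64 for miR-10a, 1.92, 1.56 and 1.53 for miR-196a (edgeR adjusted p = 0.214 with the block) and -0.49, -1.01 and -1.05 for miR-196b. Leaving out 1 sample gave -0.50 to 0.27, 2.08 to 3.42 and -1.01 to 1.29 for these 3, and -1.42 to -0.99 for miR-10b. miR-10b passed in DESeq2 (-1.16), limma (-1.24, adjusted p = 0.0419) and among miRNAs whose mean count reached 50 (-1.16, edgeR adjusted p = 0.0324). In M against FT, miR-10b was at -2.29 in DESeq2 and in the joint fit, and leaving out 1 sample gave -2.90 to 1.22 for miR-196b and -0.013 to 0.93 for the log2 ratio of miR-10a to miR-10b. In plasma, TMM gave 0.72, 0.045 and 0.71 for miR-10a, miR-10b and miR-196b, miR-425 scaling 0.59 and 0.67 for miR-10a and miR-196b, subtraction 0.72 for miR-10a, and common set scaling 0.12 for miR-196b. There the replicate block gave -1.39 for miR-196a (edgeR adjusted p = 0.0460) and 0.030 for miR-196b. Leaving out 1 sample gave -1.97 to -0.80 for miR-10b, which passed without CS4 (edgeR adjusted p = 0.0351), and -0.60 to 0.19 for miR-196b. Neither miR-10b nor miR-196a was above detection in any of the 7 plasma samples, so these passes rest on background counts. With the block 225 of all miRNAs were called, 223 of them lower, and without CS4 173 were called, all lower. The cause of these changes was not tested.

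Over all miRNAs, M against CT gave 95 calls, 151 with TMM, 151 in DESeq2, 62 in the joint fit, 45 in the t-test and 60 without CT2. M against FT gave 11 calls, 35 in DESeq2, 23 in the joint fit, 6 with subtraction, 5 in limma, 2 with miR-425 scaling, 0 in the t-test and 4 to 25 without 1 sample. FT against CT gave 1 call, 2 with TMM or DESeq2 and 0 to 9 without 1 sample, and TS against CS gave 0, and 173 without CS4. Samples of 1 replicate number deviated from their group means with correlations of -0.37 to 0.32, so the numbers were not taken to pair samples. The block gave 0, 64, 1 and 225 calls in FT against CT, M against CT, M against FT and TS against CS. Counts near the negative controls limit miR-196a in CT and all members in plasma.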
